A study of Mus musculus with 5 samples.

Results

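The subject is a set of 8 genes of fat handling in the small intestine of fasted and refed mice: Ppara, Pdk4, Cpt1a, Acadl, Acadm, Ehhadh, Angptl4 and Plin2. They were chosen by name, with earlier results of these data known, as genes of fat oxidation and ketogenesis in fasting. All 8 are among the 22042 genes of the table. In the experiment, cells that carry a Cck-Cre label were sorted from the epithelium, and their RNA was amplified and sequenced in bulk beside that of cells without the label. RNA was taken from both kinds of cells of each mouse, and the 12 libraries form 4 groups of 3. Which libraries share a mouse was inferred from the letter in their names, so that counts of mice rest on this reading.

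The mice were of strain C57Bl/6J, 6 to 8 weeks old, with the genotype Cck-Cre; R26-LSL-tdTomato. The CCK+ fasted group holds tdTomato+ cells of mice A, B and F, which were fasted overnight, and the CCK- fasted group holds tdTomato- cells of those same mice. The CCK+ refed and CCK- refed groups hold the corresponding cells of mice C, D and E, which had Ensure as a meal after the fast. A Cre label of this kind marks cells that have expressed Cck at any time, so CCK+ describes a history as well as a present state, and CCK- cells are a mixture of whatever the sort left unlabelled. The labels describe no group of mice fed without a fast and give no length of refeeding, so a difference between fasted and refed mice has no fed baseline to be placed against.

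In a fast, fatty acids released from stores activate the nuclear receptor PPAR alpha, which drives genes for their import into mitochondria, their stepwise breakdown there and in peroxisomes, and, in tissues with the enzymes, their conversion to ketone bodies. A meal turns cells back to glucose. The absorptive cell of the small intestine differs from liver and muscle in that the meal also brings it a load of dietary fat, which it holds for a while in lipid droplets before export.

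Among the 8 genes there is no enzyme of ketone body synthesis, so that part of their name is covered only by a separate list of 10 genes. Plin2 encodes a lipid droplet coat and was higher in refed than in fasted mice, opposite to what a name for genes of fasting implies. All 8 had a mean above 10 normalized counts, as did 13517 genes. The values are counts scaled between libraries, with no correction for gene length, so each gene is compared between libraries and not with another gene.

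The sort left clear marks on the libraries. Cck itself stood at 20166, 15183 and 25000.5 in CCK+ fasted libraries and 32592, 26039 and 14837 in CCK+ refed ones, against 27.6 to 86 in the 6 CCK- libraries. Summed, 17 enteroendocrine genes (most abundant Chgb) were 98.4-fold higher in CCK+ cells, and 17 of 17 passed the test. CCK+ libraries nevertheless held much RNA of enterocyte genes: the sum of 12 such markers (most abundant Anpep) was 349284, 563629 and 433870.0 in CCK+ fasted and 370786, 266525 and 247487 in CCK+ refed libraries. In CCK- libraries it was 664891, 844177 and 655574 when fasted and 677595, 657707 and 631214 when refed, above every CCK+ library. In bulk RNA, fewer cells of a type and less RNA per cell cannot be told apart. A single library stands apart: CCK+ fasted mouse A holds 4246 counts of 5 pancreatic acinar genes (most abundant Ctrb1), where the other 11 libraries hold 0 to 2.53.

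Refeeding separated the 8 genes into a few that moved strongly and a majority that did not pass the test. In both cell fractions Plin2 was higher by a wide margin in refed mice, in every refed library above every fasted one. Pdk4, whose product keeps pyruvate out of mitochondrial oxidation, fell in CCK- cells and was lower in CCK+ cells without passing. Angptl4 was also lower in every refed library of a fraction than in any fasted one, with a wide spread among fasted mice, and did not pass. The genes for the enzymes of the oxidation itself had no call in either fraction.

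In numbers, limma called 561 of 22042 genes in CCK+ cells, 289 higher and 272 lower in refed mice. Of the 8, 1 (Plin2) was called higher, beside 1.31% of all genes, and 0 were called lower, beside 1.23% of all genes. At an unadjusted p under 0.05, 2 (Pdk4 and Angptl4) were lower and 1 (Plin2) was higher. Of all 22042 genes, 3736 were under that p, in either direction. In CCK- cells 272 genes were called, 156 higher and 116 lower. There 1 of the 8 (Plin2) was higher, beside 0.708% of all genes, and 1 (Pdk4) was lower, beside 0.526% of all genes. At an unadjusted p under 0.05, 4 of the 8 were lower (Pdk4, Acadm, Angptl4 and Ppara) and 1 was higher (Plin2). In these cells 2635 of all genes were under that p, in either direction. Counting groups that do not overlap in CCK+ cells, 2 of the 8 (Cpt1a and Plin2) had all 3 refed libraries above all 3 fasted ones, as did 10.8% of all genes, and 2 (Pdk4 and Angptl4) had them below, as did 8.61%. In CCK- cells 1 (Plin2) had them above, as did 8.05% of all genes, and 4 (Pdk4, Acadm, Angptl4 and Ppara) had them below, as did 8.18%. The median log2 difference of the 8 was -0.22 in CCK+ and -0.32 in CCK- cells, and that of all genes 0.01 and 0.00. Scaling the libraries to equal sums instead shifts the median of all genes by 0.19 in CCK+ cells and splits their calls 631 higher to 184 lower, and in CCK- cells, where the shift is 0.01, 168 to 97.

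**Figure D1:**
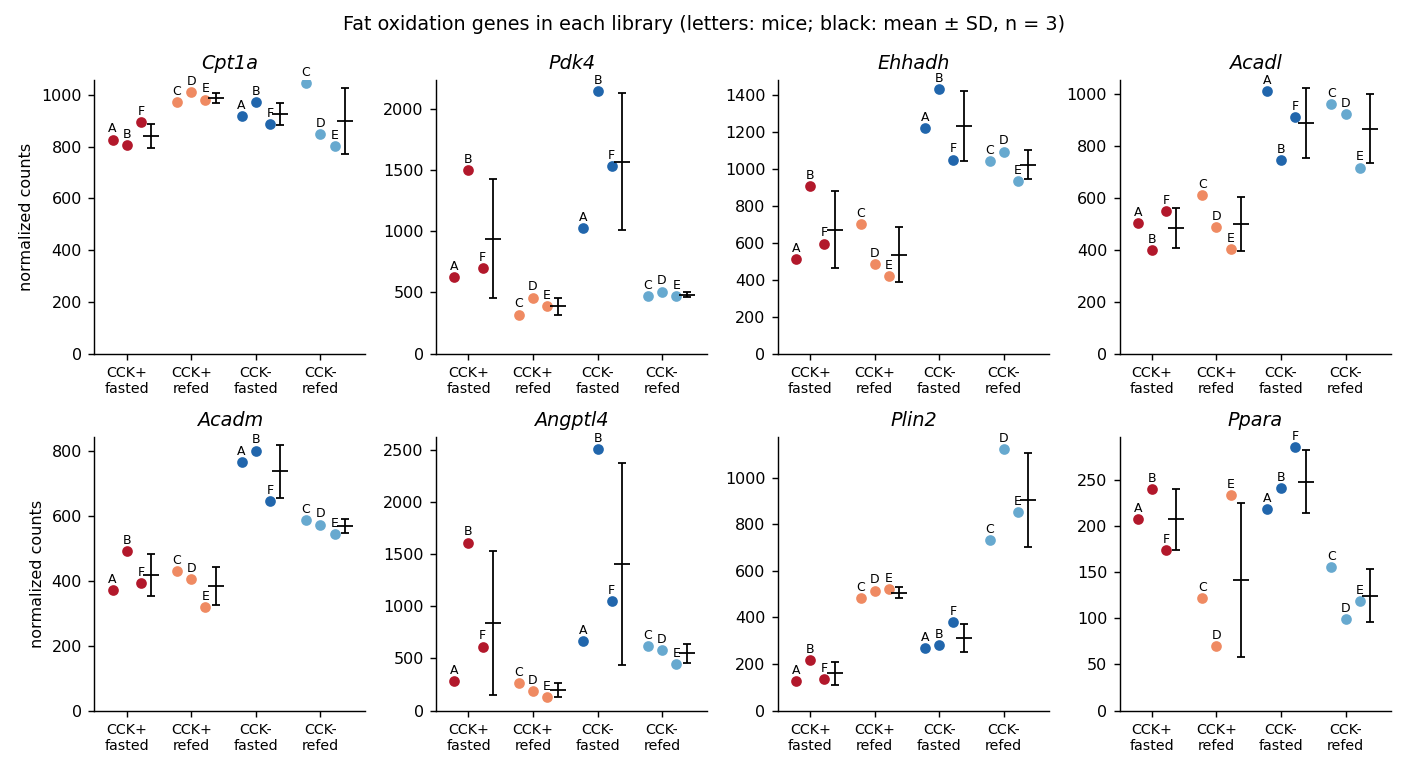
Normalized counts of each of the 8 genes in the 12 libraries, with letters for mice and black marks for mean ± SD (n = 3). Plin2 is higher and Pdk4 lower in all refed libraries of both fractions, and fasted mouse B carries the highest Pdk4 and Angptl4 values, 2147 and 2503 in CCK- cells.

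The promoters of the 2 genes that passed on refeeding are shown because the genes moved in opposite directions while both are textbook targets of PPAR alpha. Each run is the 250 bases before the transcript start in RefSeq (GRCm38.p6), read 5′ to 3′ on the gene's strand, which is the minus strand for both: chr4:86670060-86670309 for Plin2 and chr6:5496279-5496528 for Pdk4. Capitals mark AGGTCA or its reverse complement TGACCT, the half-site that PPAR alpha and related nuclear receptors bind.
Plin2: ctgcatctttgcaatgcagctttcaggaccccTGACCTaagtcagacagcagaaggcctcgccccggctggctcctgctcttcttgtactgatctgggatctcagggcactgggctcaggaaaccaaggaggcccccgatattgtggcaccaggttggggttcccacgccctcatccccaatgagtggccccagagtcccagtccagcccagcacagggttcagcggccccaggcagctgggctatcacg
Pdk4: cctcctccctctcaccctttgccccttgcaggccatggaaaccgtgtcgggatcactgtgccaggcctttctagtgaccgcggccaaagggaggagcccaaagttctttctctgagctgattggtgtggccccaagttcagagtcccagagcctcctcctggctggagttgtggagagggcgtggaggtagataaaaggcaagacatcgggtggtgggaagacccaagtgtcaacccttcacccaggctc
The Plin2 run holds 1 match, starting 218 bases before the transcript start, and the Pdk4 run holds 0. A promoter was found for 7 of the 8 genes, all but Angptl4, and 3 of the 7 hold the half-site (Cpt1a, Acadm and Plin2), as do 14% of 32851 mouse promoters. TGTTTAC, the core bound by FoxO factors, occurs in 0 of the 7 (3.17% of all promoters), and CACGTG, the E-box, in 0 of the 7 (6.02%). A match is a description, not a site or a cause.

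Ppara, the receptor at the head of this programme, had no call. In CCK- cells it stood at 218, 241 and 285 in fasted and 156, 99.3 and 119 in refed mice. All 3 refed libraries were below all 3 fasted ones, a log2 difference of -1.002 ± 0.337 (SE) with an adjusted p of 0.202. In CCK+ cells the values were 208, 240.0 and 174 against 122, 69.8 and 233. There mouse E was as high as the fasted mice and the groups overlap, with -0.71 and an adjusted p of 0.307. Leaving out 1 library took this difference to between -1.15 and -0.29 (adjusted p 0.100 to 0.720), without a call. Of 16 genes for nuclear fatty acid receptors and their partners, limma called 1 in CCK+ cells, the coactivator gene Ppargc1a, at 1704, 2075 and 1556 in fasted and 1251, 976 and 1137 in refed mice. It fell by 0.66 on the log2 scale, lower in 3 of 3 refed libraries (adjusted p 0.0283), a call lost without CCK+ fasted B, CCK+ refed D or E, or CCK- refed D (adjusted p up to 0.105) and kept without each of the other 8 libraries. It was also lost without both libraries of mouse A, B, D or E (up to 0.153). In CCK- cells it differed by -0.21 (adjusted p 0.653), and the response did not differ between fractions by the test of the difference (-0.45, adjusted p 0.793). In CCK- cells limma called 0 of the 16, and 3 had an unadjusted p under 0.05.

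Pdk4 makes a kinase that switches off pyruvate dehydrogenase and so spares glucose while fat is burned. In CCK- cells its counts were 1027, 2147 and 1530.1 in fasted mice and 473, 507 and 468 in refed mice. The refed values lie close together and the lowest fasted value, of mouse A, is well above them. The fall was 3.11-fold, a log2 difference of -1.64 (95% interval -2.29 to -0.99), lower in 3 of 3 refed libraries, with an adjusted p of 0.0188. In CCK+ cells, fasted mice had 626, 1497 and 696 and refed mice 319, 457 and 386. Mouse B is far above the other fasted mice here, the groups do not overlap, and the difference of -1.18 ± 0.304 (SE) missed the threshold at an adjusted p of 0.0581. The response did not differ between fractions by its own test (0.46, adjusted p 0.838), so a fall in CCK- cells alone is not shown.

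The Pdk4 call in CCK- cells is fragile. It was kept without CCK+ fasted mouse B or without CCK- fasted mouse A and lost without each of the other 10 libraries, with adjusted p from 0.0125 to 0.128, and over all alternatives the range was 0.0113 to 0.215. Leaving out a CCK+ library does not change the CCK- difference of -1.64. It changes only the spread estimate that the groups share and the adjustment over genes. The same holds for every call within 1 fraction. The fit treats the 12 libraries as independent, although both fractions came from each mouse. In CCK+ cells the range over alternatives was 0.0392 to 0.271, and the gene passed with quantile normalization (0.0392) and among genes with a mean of at least 10 (0.0478).

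Among 13 genes of pyruvate dehydrogenase with its kinases and phosphatases, Pdk4 was the 1 called in CCK- cells, and another kinase gene, Pdk2, was the 1 called in CCK+ cells. Pdk2 counts there were 1065, 1906 and 1539 in fasted and 793, 572 and 539 in refed mice. Every refed library was below every fasted one, a fall of 1.22 on the log2 scale (adjusted p 0.0215). The call was lost without CCK+ fasted B or F, CCK+ refed D or E, or CCK- refed D (up to 0.152). In CCK- cells the difference was -0.89 (adjusted p 0.122), and the difference between the responses was -0.33 (adjusted p 0.85). The median of the 13 genes was 0.15 in CCK+ and 0.04 in CCK- cells.

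Cpt1a, which makes the carnitine transferase that admits long-chain fatty acids to mitochondria, had no call on refeeding in either fraction. CCK+ counts were 828, 806 and 895 in fasted and 973, 1012 and 982 in refed mice. All 3 refed libraries lie above the fasted ones by a small margin, 0.23 on the log2 scale (95% interval -0.06 to 0.52), and the adjusted p is 0.425. Equal library sums give 0.46, also without a call. In CCK- cells, 918, 972 and 888 stood against 1045, 849 and 803. The groups overlap there, with a difference of -0.05 (adjusted p 0.983) that turns to 0.027 when libraries are scaled to equal sums.

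Acadl and Acadm make the long- and medium-chain dehydrogenases of the first oxidation step. Acadl read 504, 399 and 548 in CCK+ fasted and 610.0, 487 and 404 in CCK+ refed libraries. Its groups overlap, with a difference of 0.04 (adjusted p 0.957), or 0.26 with equal sums. In CCK- cells it differed by -0.04 (adjusted p 1; 0.041 with equal sums). Acadm in CCK- cells was 764, 801 and 646 when fasted and 586, 573 and 545 when refed. The refed libraries are all lower, by a modest margin of -0.37 on the log2 scale, with an adjusted p of 0.392. In CCK+ cells its groups overlap, at -0.12 (adjusted p 0.766), or 0.10 with equal sums. Across 18 genes of mitochondrial fatty acid oxidation, limma called 0 in either fraction, with 3 at an unadjusted p under 0.05 in each. Their median was -0.10 in CCK+ and -0.13 in CCK- cells. The genes nearest to passing were Etfa (0.37, adjusted p 0.226) and Hadh (-0.54, adjusted p 0.176) in CCK+ cells, and Eci2 (-0.60, adjusted p 0.103) and Echs1 (-0.54, adjusted p 0.168) in CCK- cells. Etfa passed in 1 of 25 alternatives in CCK+ cells (adjusted p 0.0302).

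Ehhadh makes the bifunctional enzyme of peroxisomal oxidation. It was 512, 906 and 595 in CCK+ fasted and 702, 486 and 419 in CCK+ refed libraries, and 1221, 1429.8 and 1049.9 against 1041, 1093 and 935 in CCK- cells. Fasted and refed groups overlap in both, with differences of -0.32 (adjusted p 0.522) and -0.26 (adjusted p 0.75). The CCK+ value shrinks to -0.079 without CCK+ fasted mouse B and to -0.092 with equal sums. A neighbour in the same pathway, the thiolase gene Acaa1a, fell with refeeding in both fractions. Its counts were 1049, 1139.8 and 948 in CCK+ fasted and 642, 630.4 and 423 in CCK+ refed libraries, and 1853, 1733 and 1731 against 1073, 1061 and 985 in CCK- cells. The groups are well apart in both, at -0.91 (adjusted p 0.0117) and -0.77 (adjusted p 0.0360), with no difference between the responses called (-0.14, adjusted p 0.907). The CCK+ call was lost without CCK+ fasted mouse B (0.0591) and without both libraries of mouse B, D or E (up to 0.0840), and the CCK- call was kept without CCK+ fasted B or CCK+ refed E and lost without each of the other 10 libraries (up to 0.149). Acaa1a has a near-identical neighbour, Acaa1b, so how reads divide between them is uncertain. Of 18 peroxisomal genes, Acaa1a was the 1 called in CCK- cells, and in CCK+ cells Acox2 was called with it (-1.30, adjusted p 0.0383, lower in 3 of 3). Acox2 kept its call without CCK+ refed C, lost it without each of the other 11 libraries (up to 0.154), and differed by -0.69 in CCK- cells (adjusted p 0.392), with a difference between responses of -0.62 (adjusted p 0.817).

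For ketone bodies, limma called 0 of 10 genes of their synthesis and use in either fraction, with 2 at an unadjusted p under 0.05 in CCK+ and 3 in CCK- cells, all of them higher in refed mice. The median of the 10 was 0.21 in CCK+ and 0.09 in CCK- cells. Nearest to passing were Slc16a1 (0.49, adjusted p 0.227) and Aacs (1.44, adjusted p 0.246) in CCK+ cells, and Bdh2 (2.10, adjusted p 0.144) and Slc16a6 (0.56, adjusted p 0.19) in CCK- cells.

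Angptl4 makes a secreted inhibitor of lipoprotein lipase and is a sensitive target of PPAR alpha and its relatives. In CCK+ cells it read 287, 1609 and 614 in fasted and 265, 189 and 134 in refed mice. Mouse B drives the fasted mean up and mouse A lies only just above the highest refed library. The refed mean is 3.47-fold lower by the fit, -1.79 on the log2 scale (95% interval -2.92 to -0.67), with an adjusted p of 0.0922. In CCK- cells the same mice gave 670.4, 2503 and 1050.0 against 618, 581 and 449. The order of the fasted mice is the same in both fractions, A lowest and B highest, and the CCK- difference is -1.15 (adjusted p 0.407), or -0.62 without CCK- fasted mouse B (adjusted p 0.817; 0.260 to 0.817 over alternatives). Leaving out CCK+ fasted mouse B takes the CCK+ difference to -1.15 (adjusted p 0.351). Leaving out CCK+ fasted mouse A, the library with acinar RNA, takes it to -2.39 and past the threshold (adjusted p 0.0477; range over alternatives 0.0474 to 0.413). Among 9 genes of lipoprotein lipase and its regulators, limma called 0 in either fraction, and 2 in CCK+ and 1 in CCK- cells had an unadjusted p under 0.05.

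**Figure D2:**
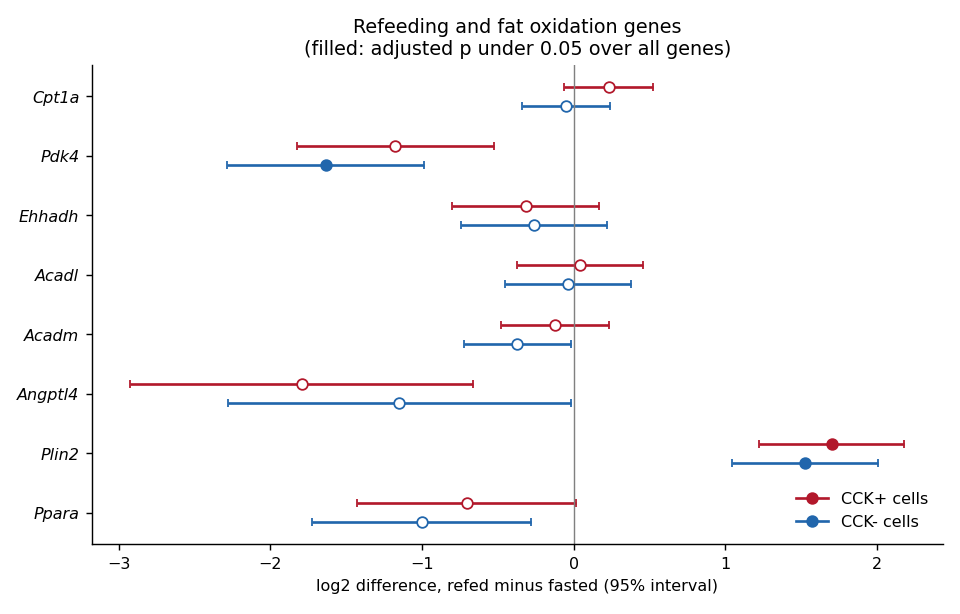
Log2 difference of refed minus fasted mice for each of the 8 genes, with 95% intervals, in CCK+ (red) and CCK- cells (blue); filled points have an adjusted p under 0.05. Plin2 lies at 1.70 and 1.53, and Pdk4 and Angptl4 lie on the other side of 0 with wide intervals.

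Plin2 coats the lipid droplets of most cells and rises where they store fat. In CCK+ cells its counts were 126, 216 and 137 in fasted and 482, 515 and 524 in refed mice. The refed libraries are tightly grouped and the lowest is more than double the highest fasted value. The rise was 3.25-fold, 1.70 on the log2 scale (95% interval 1.22 to 2.18), higher in 3 of 3 refed libraries, with an adjusted p of 2.94e-03. In CCK- cells, fasted mice had 269, 283 and 382 and refed mice 730.4, 1124 and 852. Mouse D is the highest there and the groups are again far apart, with a 2.88-fold rise, 1.53 on the log2 scale (95% interval 1.05 to 2.00) and an adjusted p of 3.85e-03. The responses did not differ between fractions by their own test (0.17, adjusted p 0.916).

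The Plin2 calls were kept without any 1 of the 12 libraries, with adjusted p from 8.61e-03 to 0.0380 in CCK+ and 5.23e-03 to 0.0447 in CCK- cells. Leaving out both libraries of a mouse, an alternative chosen after seeing the data, ended the CCK+ call without mouse D (0.0589) or E (0.0521) and the CCK- call without A (0.0593), D (0.119) or E (0.0893), and so did fitting a fraction alone (0.108 and 0.0998) and, in CCK- cells, no variance trend (0.0512); over all alternatives the ranges were 7.79e-04 to 0.108 and 1.32e-03 to 0.119.

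Of 17 genes of droplet coats and lipolysis, Plin2 was the 1 called in each fraction, and the medians were -0.13 and 0.00. The lipase gene Pnpla2 was lower in every refed library of CCK+ cells, 689, 609 and 576 against 783, 1453 and 1091, and of CCK- cells, 813, 833 and 967 against 1221, 1722 and 1262. It did not pass, at -0.79 (adjusted p 0.0629) and -0.67 (adjusted p 0.156). In CCK+ cells it passed in 4 of 25 alternatives, among them without CCK+ fasted A (-1.01, adjusted p 0.0223; 0.0223 to 0.305 over alternatives). G0s2, which encodes an inhibitor of that lipase, was near the floor, with 0 to 2.81 counts in CCK+ fasted and 4.26, 12.4 and 4.53 in CCK+ refed libraries, a difference of 2.22 (adjusted p 0.136). In CCK- cells it had 0, 2.43 and 3.35 against 13.3, 14.8 and 7.45, a difference of 2.34 (adjusted p 0.169) without overlap. G0s2 passed when the fractions of each mouse were averaged (2.28, adjusted p 0.0326, higher in 3 of 3 refed mice). That call was lost in 7 of 11 alternatives, among them without any 1 mouse (adjusted p 0.139 to 0.231). Values so near 0 also depend on the pseudocount. Among 22 textbook targets of PPAR alpha, Plin2 was the 1 called higher in each fraction, Pdk4 the 1 called lower in CCK- cells, and the fatty acid translocase gene Cd36 and the carnitine transporter gene Slc22a5 the 2 called lower in CCK+ cells. Cd36 fell by 1.16 on the log2 scale (adjusted p 0.0349, lower in 3 of 3), a call kept without CCK+ fasted A or CCK+ refed C and lost without each of the other 10 libraries (up to 0.211). Slc22a5 fell by 1.01 (adjusted p 0.0224, lower in 3 of 3), a call lost without any 1 CCK+ library but fasted A (up to 0.120) and without both libraries of any 1 of the 6 mice (0.0563 to 0.133). In CCK- cells they differed by -0.70 (adjusted p 0.282) and -0.77 (adjusted p 0.106), with differences between responses of -0.46 (adjusted p 0.831) and -0.24 (adjusted p 0.859). The medians of the 22 were -0.29 and -0.06.

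Among 16 genes of fatty acid synthesis, 3 were called higher in CCK+ cells, beside 1.31% of all genes, and 5 in CCK- cells, beside 0.708%, while 13 and 11 were not called. limma called 0 lower in either fraction, with 0 lower at an unadjusted p under 0.05 in CCK+ cells and 1 in CCK- cells, Scd1, which was chosen after its values were seen and has the largest difference of the list there (-2.87, adjusted p 0.176). Acly, which supplies the building block, was 269, 236 and 302 in CCK+ fasted and 541, 541 and 566 in CCK+ refed libraries, a rise of 1.03 (adjusted p 0.0139). In CCK- cells it rose from 152, 141 and 119 to 346, 222 and 231, by 0.93 (adjusted p 0.0334). All refed libraries were above all fasted ones in both fractions. Scd2 rose by 1.78 (adjusted p 0.0208) and 2.02 (adjusted p 0.0175), higher in 3 of 3 refed libraries each time, and Mlxipl, which encodes a glucose-responsive factor, by 0.75 in CCK+ cells (adjusted p 0.0107). In CCK- cells Fasn (1.40, adjusted p 0.0238) and Fads1 (1.35, adjusted p 0.0189) also rose, higher in 3 of 3 refed libraries. Of these calls, Mlxipl in CCK+ cells was kept without any 1 library (adjusted p up to 0.0425) and lost without both libraries of mouse D (0.0791) or E (0.0512), without a variance trend (0.0870) and with CCK+ libraries alone (0.108). Acly was kept in 9 of 12 leave-one-out fits in CCK+ (lost without fasted B, refed D or refed E of that fraction, up to 0.0727) and 1 in CCK- cells (without CCK+ fasted B; up to 0.109). Scd2 was kept in 7 in each fraction (up to 0.116 and 0.0961), Fads1 in 5 (up to 0.0976) and Fasn in 1 (without CCK+ fasted A; up to 0.133).

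**Figure D3:**
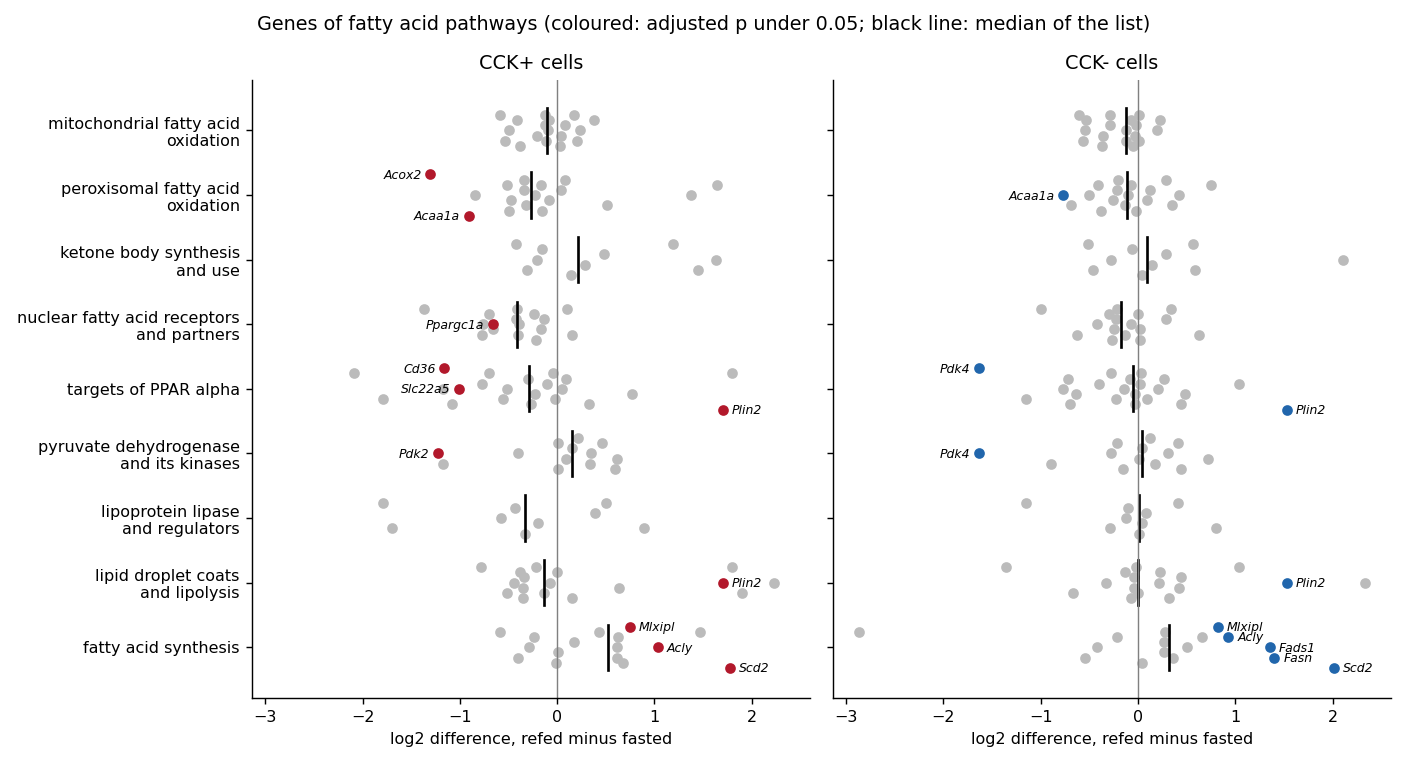
Log2 difference of refed minus fasted mice for the genes of 9 pathway lists (points) in CCK+ and CCK- cells, with the median of each list as a black line; coloured points have an adjusted p under 0.05. Of 18 mitochondrial oxidation genes 0 were called in either fraction, and the peroxisomal calls, 2 in CCK+ and 1 in CCK- cells, are lower. Plin2 is higher, and the calls of the synthesis list are all higher, 3 in CCK+ and 5 in CCK- cells. Scd1 of that list lies at -2.87 in CCK- cells without a call. Of all genes, 1.23% in CCK+ and 0.526% in CCK- cells were called lower, and 1.31% and 0.708% higher.

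Most of these other calls on refeeding are unsteady. Of 25 alternatives for each, the CCK+ calls were lost in 11 for Ppargc1a (adjusted p up to 0.180), 12 for Pdk2 (0.224), 6 for Acaa1a (0.163), 19 for Acox2 (0.248), 17 for Cd36 (0.293), 13 for Slc22a5 (0.151), 8 for Acly (0.108) and 12 for Scd2 (0.185). The CCK- calls were lost in 19 for Acaa1a (0.187), 20 for Acly (0.190), 13 for Scd2 (0.172), 19 for Fasn (0.238) and 14 for Fads1 (0.148).

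Whether refeeding acted differently on the fractions was tested for every gene. The 8 genes gave no call, and hardly any gene did: limma called 1 of 22042, which is 0.00454% of all genes, beside 0 of the 8, and 0 of the 8 had an unadjusted p under 0.05 (1378 genes did). The gene called is Gvin1, which lies outside the lists and was named after its values were seen. The median of the 8 was 0.21 and that of all genes 0.01, which equal sums shift by 0.12, and the estimate for Ehhadh of -0.05 turns to 0.092 with equal sums. For Angptl4 the estimate is -0.65 (SE 0.745, adjusted p 0.854), in a range of -1.24 to -5.93e-04 when 1 library is left out. With the mouse as a block its SE is 0.233, its unadjusted p 0.0196 and its adjusted p 0.599, so that 1 of the 8 is then under an unadjusted p of 0.05 (1714 genes are) and 0 are called.

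Because both fractions were taken from each mouse, the fractions were also averaged within each mouse and 3 fasted mice compared with 3 refed ones, a comparison chosen after seeing the data. It gave the same picture for the 8 genes. Plin2 was 1.61 ± 0.157 higher (SE, log2; adjusted p 1.39e-03, higher in 3 of 3 refed mice), Pdk4 fell by 1.41 on the log2 scale (SE 0.247, adjusted p 0.0207, lower in 3 of 3), and Angptl4 did not pass (-1.47, adjusted p 0.114). In all, limma called 577 genes, 298 higher and 279 lower: 1 of the 8 was higher, beside 1.35% of all genes, and 1 was lower, beside 1.27%. Equal library sums shift the median of all genes by 0.12 here and split the calls 488 to 198. Leaving out any 1 mouse left 0 or 1 gene called and 0 of the 8, with 2 mice on 1 side.

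Enterocyte markers moved with part of this result. In CCK+ cells 10 of 12 were lower in refed mice, their sum was 0.657 times the fasted one, and limma called 2 of them, Lct (-0.96, adjusted p 0.0460) and Slc5a1 (-1.02, adjusted p 0.0391). At an unadjusted p under 0.05, 5 of the 12 were lower and 0 higher in CCK+ cells. In CCK- cells the ratio was 0.908, with 6 of the 12 higher and 6 lower in refed mice. There limma called 0 of the 12, and the 1 marker at an unadjusted p under 0.05 was higher in refed mice. Their part in the result was not tested. Expressed per 100000 enterocyte marker counts, a scale chosen after seeing the data, Plin2 was 36.2, 38.4 and 31.5 in CCK+ fasted and 130.0, 193 and 212 in CCK+ refed libraries. In CCK- cells it was 40.5, 33.5 and 58.3 against 108, 171 and 135. Plin2 was thus 5.04-fold and 3.13-fold higher, with groups apart in both fractions. Pdk4 on this scale overlapped in CCK+ cells, at 179, 266 and 160.3 against 85.9, 172 and 156, and stayed apart in CCK- cells, at 154, 254 and 233 against 69.8, 77 and 74.1. Angptl4 was 0.386 times its fasted value in CCK+ and 0.450 times in CCK- cells, again with no overlap. Cpt1a, Acadl, Acadm and Ehhadh had every CCK+ refed library above every CCK+ fasted one on this scale, with ratios of 1.77, 1.496, 1.40 and 1.22. With Plin2 these are 5 of the 8, beside 22.7% of all genes. Dividing by a sum that is lower on average in CCK+ refed libraries lifts all genes there on average. Of Cpt1a, Acadl, Acadm and Ehhadh, only Cpt1a is apart on the original scale. In CCK- cells their ratios were 1.06, 1.04, 0.843 and 0.912, and Acadm had every refed library below every fasted one, as did Ppara (0.543). Ppara overlapped in CCK+ cells with a ratio of 1.08, where its log2 difference on the original scale is negative. Counting all 8, 1 lay below in CCK+ cells, beside 1.62% of all genes, and in CCK- cells 1 lay above, beside 10.4%, and 4 below, beside 5.36%.

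**Figure D4:**
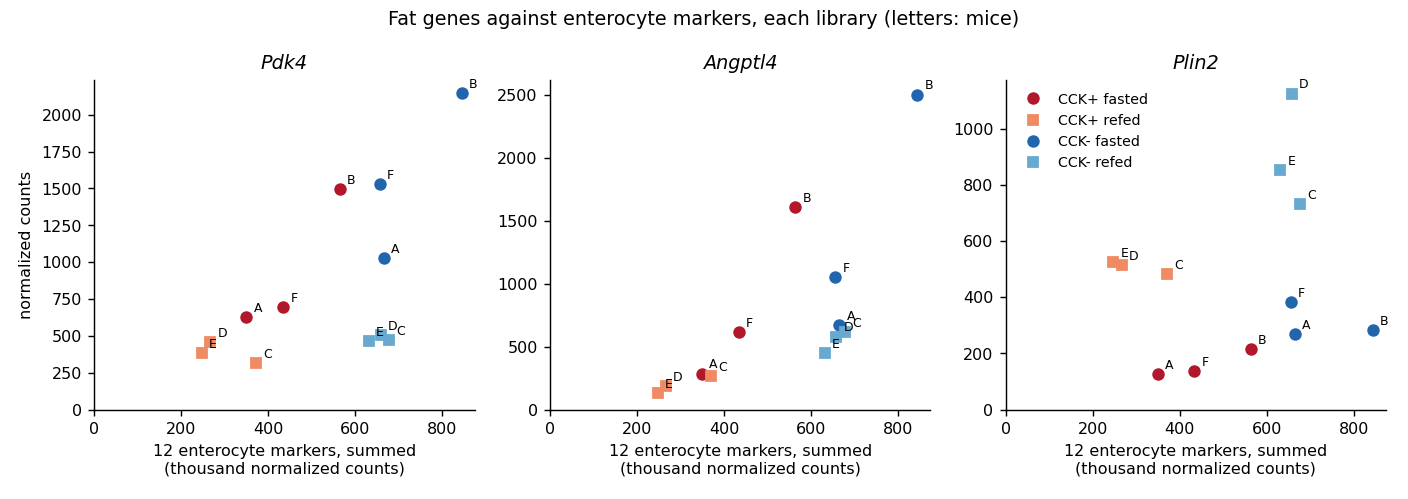
Normalized counts of Pdk4, Angptl4 and Plin2 in each library against the sum of 12 enterocyte markers, with letters for mice. Refed libraries lie above fasted ones for Plin2, and in CCK+ cells 1 refed library (mouse C, 370786) lies within the marker range of the fasted ones.

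Crypt and cycling genes had higher estimates in refed mice, most of them without a call. The sum of 9 of them (most abundant Mki67) was 2004, 2092 and 3880.0 in CCK+ fasted and 3832, 4864 and 4971 in CCK+ refed libraries, and 1305, 1323 and 1876 against 2761, 3249 and 2582 in CCK- cells. The CCK+ sums overlap, as fasted F lies above refed C. All 9 had a positive difference in both fractions, as did 11118 of 22042 genes in CCK+ and 10208 in CCK- cells. Of the 9, limma called 1 in CCK+ cells (Mki67) and 2 in CCK- cells (Mki67 and Top2a). The Mki67 call was kept in 2 of 12 leave-one-out fits in each fraction (adjusted p up to 0.180 and 0.171), without CCK+ fasted F or CCK- fasted F, and lost without both libraries of any mouse but F. Their part in the result was not tested.

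Among enteroendocrine, Paneth and villus tip genes limma called 0 on refeeding in either fraction. The sum of 17 enteroendocrine genes in CCK+ cells was 248395, 111985 and 187225 in fasted and 278303, 349916 and 293159 in refed libraries, 1.68 times as high, with 16 of 17 genes higher and 6 of them at an unadjusted p under 0.05. In CCK- cells the sum was 1.08 times as high while 11 of the 17 genes were lower (median -0.31), and 1 higher and 2 lower genes had an unadjusted p under 0.05. Paneth genes (7, most abundant Lyz1) were higher for 7 of 7 in both fractions, with 5 and 1 at an unadjusted p under 0.05. Their sums were 15727, 1680.3 and 1909 in CCK+ fasted and 7118, 25182 and 6905 in CCK+ refed libraries, where fasted mouse A and refed mouse D are far above the others of their groups. Villus tip genes (7, most abundant Apoa4) summed to 0.658 times the fasted value in CCK+ and 1.02 times in CCK- cells, with 3 and 0 at an unadjusted p under 0.05. Elsewhere 1 of 7 goblet genes (Agr2, 0.997, adjusted p 0.0297) was called higher in CCK- cells and 1 of 4 genes of the proximal intestine (Cyp2b10, -1.25, adjusted p 0.0167) lower in CCK+ cells, each in 3 of 3 refed libraries and named after its values were seen, with differences between the responses of -0.68 (adjusted p 0.775) and -0.26 (adjusted p 0.870). The part of these lists in the result was not tested.

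CCK+ cells held less RNA of most of the 8 genes than CCK- cells did. The genes for the oxidation enzymes Ehhadh, Acadl and Acadm and for Angptl4 and Plin2 were lower, while Cpt1a and Ppara did not pass. Most enterocyte markers were lower too, and whether the 2 sets differ was not tested.

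In this comparison of 6 CCK+ with 6 CCK- libraries, averaged over fasted and refed mice, limma called 7431 genes, 4324 higher and 3107 lower in CCK+ cells. Of the 8, 5 were lower, beside 14.1% of all genes, and 0 were higher, beside 19.6%, with 0 higher at an unadjusted p under 0.05. The median of the 8 was -0.77 and that of all genes 0.09. Equal library sums shift the latter by 0.26 and split the calls 6511 higher to 1232 lower, and quantile normalization shifts it by -0.23 and splits them 3225 to 4522.

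Ehhadh was 1.91-fold lower in CCK+ cells (log2 difference -0.94 ± 0.159, SE), with an adjusted p of 3.43e-04. Each of the 6 mice had less in its CCK+ library, and the highest CCK+ value, 906, is below the lowest CCK- value, 935. Acadl was 1.79-fold lower (-0.84 ± 0.138, SE; adjusted p 2.47e-04), lower in 6 of 6 mice, with CCK+ libraries up to 610.0 and CCK- libraries from 717. Acadm was 1.62-fold lower (-0.70 ± 0.117, SE; adjusted p 3.1e-04), also in 6 of 6 mice and without overlap, and missed the threshold with equal sums (-0.30, adjusted p 0.0561; range over alternatives 2.57e-04 to 0.0561). Plin2 was 1.86-fold lower (-0.90 ± 0.158, SE; adjusted p 4.6e-04), with less in the CCK+ library of 6 of 6 mice, although refed CCK+ libraries lie above fasted CCK- ones. Equal sums gave smaller differences for Ehhadh (-0.54), Acadl (-0.44) and Plin2 (-0.50), which kept their calls. With fasted libraries alone, Ehhadh and Plin2 missed the threshold (adjusted p 0.0963 and 0.0890). These were the highest over their alternatives, and the lowest were 1.86e-04 and 2.32e-04. Angptl4 was 2.30-fold lower (-1.20 ± 0.372, SE; adjusted p 0.0215), lower in 6 of 6 mice with overlapping groups. With the mouse as a block its SE is 0.116 and its adjusted p 3.4e-05. Without the block, its call was kept in 5 of 12 leave-one-out fits and lost without CCK+ fasted A (0.102) or F (0.0766), CCK+ refed D (0.0859) or E (0.0970), CCK- fasted B (0.0812), or CCK- refed C (0.0701) or D (0.0664), and also with equal sums (0.0733), without a trend (0.0617) and with fasted libraries alone (-0.88, 0.532), with a range over all alternatives of 3.4e-05 to 0.532.

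Pdk4 differed by -0.56 (-0.16 with equal sums) and missed the threshold (adjusted p 0.0585), although 6 of 6 mice had less in CCK+ cells. With the mouse as a block it passed (2.84e-03), as it did without CCK+ fasted mouse B (6.92e-03) or CCK- fasted mouse A (0.0303), in a range of 2.84e-03 to 0.545 over alternatives. Cpt1a differed by 0.01 (adjusted p 0.97; 9.53e-03 to 0.993 over alternatives), but its call depends on scaling, since equal sums give 0.40 (adjusted p 9.53e-03) and quantile normalization 0.26 (adjusted p 0.0427). Ppara had -0.11 (adjusted p 0.758), or 0.28 with equal sums.

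**Figure D5:**
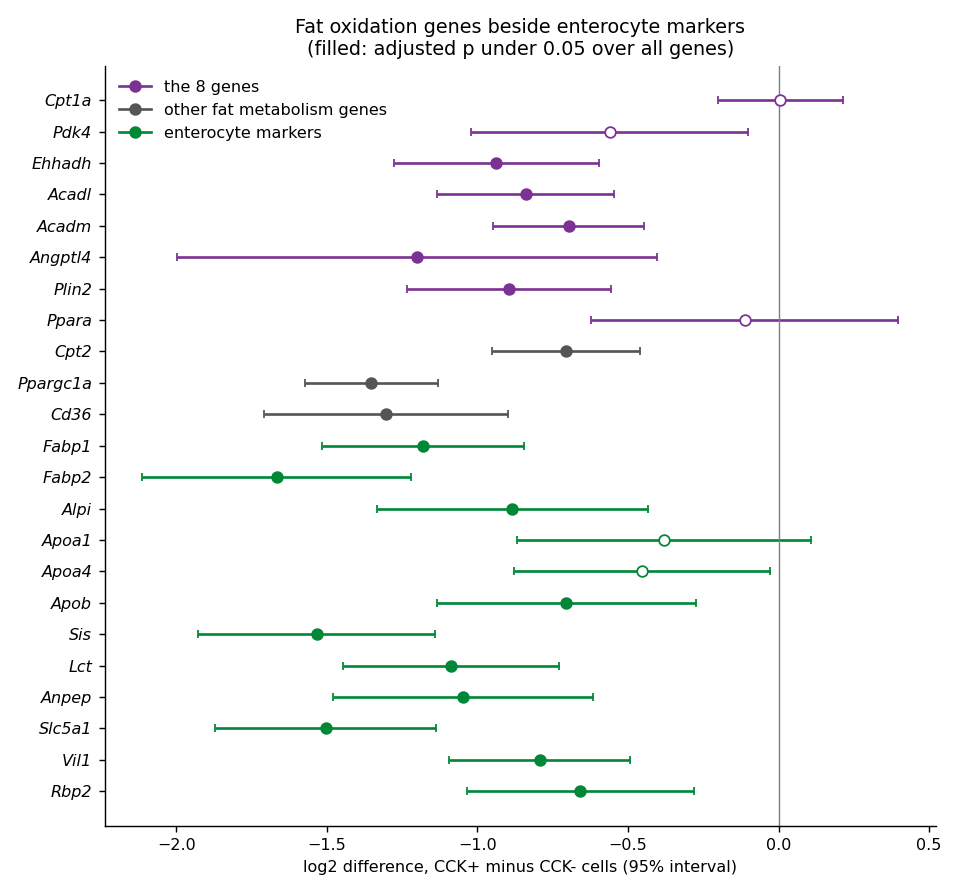
Log2 difference of CCK+ minus CCK- cells with 95% intervals for the 8 genes (purple), other fat metabolism genes (grey; Cpt2 was chosen after its values were seen) and 12 enterocyte markers (green); filled points have an adjusted p under 0.05. The 5 of the 8 genes that passed lie at -0.70 or lower, and Cpt1a lies at 0.01 (0.40 with equal sums). With equal sums the 5 lie at -0.80 to -0.30, and Angptl4 and Acadm do not pass.

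Most lists of oxidation genes also had more lower than higher calls, and the synthesis list had more higher ones. Of all genes, 14.1% were called lower and 19.6% higher in CCK+ cells. The direction of calls depends on scaling, since equal library sums split those of all genes 6511 higher to 1232 lower. The counts of the lists below are on the original scale only. In CCK+ cells 13 of 18 mitochondrial oxidation genes were lower and 0 higher (median -0.71), led by Acaa2 (-1.12, adjusted p 4.54e-04) and Etfdh (-1.08, adjusted p 2.35e-06). Of 18 peroxisomal genes 14 were lower and 0 higher (median -0.93), with Acot4 at -1.25 (adjusted p 2.46e-05) and Hsd17b4 at -1.24 (adjusted p 1.26e-06). Of 16 nuclear receptor and partner genes 9 were lower and 2 higher, and Ppargc1a was lower by -1.35 (adjusted p 2.23e-07) in 6 of 6 mice. Of 22 targets of PPAR alpha 13 were lower and 0 higher, and of 13 pyruvate dehydrogenase genes 7 were lower and 1, Pdk3, higher. The zeros stand beside unadjusted counts of 0 higher among mitochondrial genes, 1 among peroxisomal genes and 0 among the targets. Of the 10 ketone genes 5 were lower and 2 higher. Lipid droplet genes were lower for 9 of 17 and higher for 2, lipase regulators higher for 3 of 9 and lower for 2, and synthesis genes higher for 9 of 16 and lower for 2 (medians -0.60, 0.06 and 0.86). Of the lipase regulators called higher, Lmf1 lost its call in 21 of 27 alternatives, Vldlr in 1 and Apoa5 in 0. Those called lower, Apoc2 and Angptl4, lost it in 18 and 14.

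Among 12 enterocyte markers 10 were lower in CCK+ cells, beside 14.1% of all genes. Of the 12, 0 were higher (0 at an unadjusted p under 0.05), beside 19.6% of all genes. Their median was -0.97, and their sum was 0.540 times that of CCK- cells. Their part in the result was not tested. Immune genes differed the other way, 11 of 12 higher with a summed ratio of 2.07 and a median log2 difference of 3.28. The exception was the most abundant of them, Cd74, at -0.47 without a call. Crypt and cycling genes were higher for 9 of 9, with 5 called, a median of 0.79 and a summed ratio of 1.65. The part of both lists was not tested either. CCK+ and CCK- describe the sort, so a lower value in a whole fraction cannot be assigned to CCK cells or to the other cells collected with them.

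The genes whose counts ran closest with those of the 8 over the 12 libraries, after each fraction's mean was taken off, are given as a description without a test. For Plin2 they were Hsp90b1 (r = 0.973), Mat2a (0.956) and Creld2 (0.956), of which Hsp90b1 and Creld2 encode proteins of the endoplasmic reticulum. For Pdk4 they were Eif4ebp3 (0.977), Serinc3 (0.957) and Zfp592 (0.956), and for Angptl4 Pigr (0.967), Myo1d (0.962) and C77080 (0.958). Genes without a call on refeeding reached similar values, with Pttg1ip (0.98) for Ehhadh and Rab11fip4 (0.955) for Acadm. Acadl ran closest with Reg1 (0.892), Hgfac (0.88) and Onecut3 (0.832).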

How the data were processed

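RNA of sorted small intestine epithelial cells was amplified (Ovation V2) and sequenced (Illumina HiSeq) in 12 bulk libraries of 6 mice. The authors trimmed reads with Trim Galore 0.6.7, quantified them with Salmon 1.6.0 on GRCm39, removed genes with at most 1 count and deposited a signal in DESeq2-normalized counts for 22042 genes, of which 2797 have no symbol. Whole read counts could not be recovered from these values, so they were fitted as log2 of the normalized count plus 1 with limma 3.58.1 in R 4.3.3 (4 group means, trended moderated variance, 8 residual degrees of freedom, Benjamini-Hochberg over all genes, called at an adjusted p under 0.05). Library sums are 7061155 to 11371114 on this scale, which is not read depth, and 16656 to 18855 genes lie above 0. In each library the 10 most abundant genes hold 15.3 to 27.3% of the sum, and genes near 0 are imprecise.

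Contrasts were refed minus fasted in CCK+ cells and in CCK- cells, their difference, and CCK+ minus CCK- cells. The titles call all bulk samples CCK+, so fractions were assigned by the cell type label. The series text says that both fractions were taken from each mouse, and that a shared library letter marks a shared mouse was inferred. This was checked: residual correlations of the 6 same-letter pairs were 0.0773 to 0.124 and those of 12 other pairs -0.0826 to -0.0184, and the contrasts between fractions were also fitted with the mouse as a block (4 residual degrees of freedom). The 8 genes and the lists of pathway and marker genes (231 of 242 listed genes are in the table) were chosen with earlier results of these data known. Named beside the 8 are up to 4 called genes with the largest change per pathway list and comparison, otherwise the 2 with the smallest adjusted p, with Cck, each marker list's most abundant gene and the 3 genes most alike in each profile (mean of at least 50); any others were chosen after their values were seen. Alternatives were pseudocounts of 0.5 and 5, a minimum mean of 10, equal library sums, quantile normalization, no variance trend, 1 fraction or 1 state alone, and leaving out each library; mouse means, leaving out each mouse and scaling to enterocyte markers were added after seeing the data. The procedure was tested on simulated data. Droplet libraries of another genotype were not used. Promoters are RefSeq (GRCm38.p6), and figures were drawn with matplotlib 3.10.9 in Python 3.11.15.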

Additional observations from a re-analysis of the deposited data

Results flagged for a closer look

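Gvin1 was the 1 gene for which the refeeding response differed between CCK+ and CCK- cells in the test of that difference (-6.55 on the log2 scale, limma, adjusted p 1.61e-04). Leaving out a library or a mouse gave 0 to 8 genes called for this difference, so the call was not kept in every fit. Gvin1 lies outside the lists and was named after its values were seen. Its counts were 107, 320.2 and 384 in CCK+ fasted and 476, 468 and 499 in CCK+ refed libraries, and 219, 196 and 159 in CCK- refed libraries, while all 3 CCK- fasted libraries list it at 0. The fitted value therefore depends on the pseudocount and is no bound. Gvin1 belongs to a family of near-identical genes, so its own count is uncertain.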

How the results depend on the processing

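Over all alternatives, the called genes that were followed by name lost the threshold in 122 of 275 tries in CCK+ cells (11 genes), 125 of 200 in CCK- cells (8), 81 of 131 for mouse means (11) and 75 of 1187 between fractions (44). With results never called included, 2710 stayed as they were, 403 lost the threshold, 19 gained it and 47 reversed. With equal library sums these differences became Acadm 0.10 (CCK+ refed against fasted), Cpt1a 0.027 and Acadl 0.041 (CCK-), Ppara 0.28 (CCK+ against CCK-) and Ehhadh 0.092 (difference of responses). Between fractions, fasted mice alone gave Cpt1a -0.14 and refed mice alone Ppara 0.036. Genes called in CCK+ cells on refeeding numbered 850 with quantile normalization, 119 without a variance trend and 0 with CCK+ libraries alone, and in CCK- cells 165, 66 and 63. Of the 8 genes, 2 were called in CCK+ cells with a minimum mean of 10 and with quantile normalization and 0 with that fraction alone, and in CCK- cells 0 without a trend and 0 alone. Between fractions, fasted mice alone gave 2169 genes and 2 of the 8. The response differed for 2 genes with quantile normalization and 2 without a trend, and mouse means without a trend gave 3 genes and 0 of the 8. Leaving out libraries or mice gave 49 to 876 genes and 0 to 2 of the 8 (CCK+), 44 to 268 and 0 to 2 (CCK-), 5706 to 7618 and 4 to 6 (between fractions), 0 to 8 and 0 to 0 (difference of responses) and 0 to 1 and 0 to 0 (mouse means). Those fits also turned some small differences, with ranges of -0.11 to 0.19 (Acadl), -0.21 to 0.0075 (Acadm) and -0.0038 to 0.56 (Cck) in CCK+ cells, -0.16 to 0.026 (Cpt1a) and -0.16 to 0.095 (Acadl) in CCK- cells, -0.033 to 0.068 (Cpt1a) and -0.34 to 0.097 (Ppara) between fractions, -0.27 to 0.18 (Ehhadh), -0.076 to 0.22 (Acadl), -0.072 to 0.47 (Plin2) and -0.17 to 0.72 (Ppara) for the difference of responses, and -0.12 to 0.14 (Acadl) for mouse means. The block for mice changed 2 calls between fractions, Pdk4 gained and Lmf1 lost, of 47 genes tried, and no other call. The cause was not tested. Genes near 0, such as G0s2, depend on the pseudocount.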

Other observations

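Further marker lists are given as values. In CCK+ against CCK- cells the summed ratios were 0.804 for 7 villus tip genes (most abundant Apoa4), 0.781 for 7 goblet genes (Muc2), 0.728 for 7 tuft genes (Trpm5), 0.617 for 4 genes of the proximal intestine (Onecut2), 0.591 for 3 of the distal intestine (Osr2), 0.928 for 8 stroma and vessel genes (Pecam1) and 0.553 for the 2 of 5 fat cell genes in the table (Plin1). Summed over 7 Paneth genes (Lyz1), the ratio was 1.65, with 15727, 1680.3 and 1909 in CCK+ fasted, 7118, 25182 and 6905 in CCK+ refed, 3146, 2872 and 4084 in CCK- fasted and 4068, 14699.5 and 6645 in CCK- refed libraries, so that mouse D is highest in both fractions. The 1 red blood cell gene in the table (Alas2) ranged from 0.609 to 25.5 counts.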
